A study of Mus musculus with 45 samples.

Results

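The libraries described here follow mouse embryonic fibroblasts that were made to express the muscle transcription factor MyoD in the presence of the small molecules F/R/C, from day 4 to day 10 of treatment. They were chosen by their titles: the 3 libraries of day 10 were compared with the 3 libraries of day 4, paired by replicate number, and the 3 libraries each of day 6 and day 8 stand between them. That makes 6 of the 45 libraries of the study for the main comparison and 12 with the intermediate days. All cells carried the transgene Tg:Pax7-nGFP on a C57BL6;DBA2 background, a nuclear green fluorescent reporter of Pax7. In every group of the course MyoD was switched on with doxycycline (Dox), so the day 4 libraries are no uninduced control: they had received Dox and F/R/C for 4 days, and the others for 6, 8 or 10 days. A parallel course with Dox and no F/R/C, called MyoD alone below, was sampled on the same days with 3 libraries each. Untreated fibroblasts, day 2 libraries and established induced myogenic progenitor cells (iMPCs), unsorted or sorted for the Pax7 reporter, serve only as reference levels. The unsorted iMPCs are recorded with 13 days of Dox, and no Dox time is given for the sorted ones. The promoter that drives the MyoD transgene, the number of embryos and whether replicates came from separate cultures are not given in the sources used here, so p-values measure only the spread between these libraries.

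Pax7 is a paired-box transcription factor that marks skeletal muscle stem cells (satellite cells) and their embryonic precursors, and it is switched off as these cells differentiate. MyoD and its relatives Myf5, myogenin and Myf6 are basic helix-loop-helix factors that commit cells to muscle and drive fusion into fibres, whereas Notch signalling holds progenitors in the undifferentiated state. Forskolin, which raises cAMP, RepSox, which inhibits the TGF-beta receptor, and a GSK-3 inhibitor, which activates Wnt signalling, are the molecules known by the abbreviation F/R/C in this field.

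Each of the 12 libraries held from 17.07 to 26.7 M estimated reads. Replicates of a day correlated with r from 0.956 to 0.979 across genes. Transcripts of the Y chromosome summed to between 146 and 164 CPM (read counts scaled to library size) in the replicate 3 libraries of all 4 days and to at most 0.584 CPM in replicates 1 and 2, where Xist stood between 292 and 677 CPM. Replicate numbers thus track the sex of the source cells from day to day. Unless stated otherwise, levels are CPM scaled by TMM and log2 fold changes come from edgeR's quasi-likelihood test with the replicate number as a block, with Benjamini-Hochberg adjusted p. A gene was called at an adjusted p under 0.05 and a log2 fold change of at least 1 in size. In bulk RNA, more cells of a type and more RNA per cell cannot be told apart.

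The labels give every day of this course the same cell type, muscle fibres and progenitor cells. Fibre genes were abundant on day 4, with embryonic myosin heavy chain Myh3 at 11470, 16430 and 13430 CPM in replicates 1, 2 and 3. The defining progenitor gene was close to its detection limit on that day: Pax7 had 5, 4 and 25 reads, and Calcr, the calcitonin receptor of quiescent satellite cells, had 0 reads in all 3 libraries. Other genes that progenitors express, among them Cdh15 and Fgfr4, were present on day 4.

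Between day 4 and day 10, 2394 of 15713 tested genes (15.2%) were called: 1470 rose (9.36%) and 924 fell (5.88%). The median log2 fold change over all tested genes was 0.03. Counts of list members that rose or fell from day 4 to day 10 are to be read beside these shares. Among genes that rose were Pax7, other genes of muscle progenitors, Notch pathway genes and genes of dividing cells, and among those that fell were genes of fast and mature muscle, of fusion and of the neuromuscular synapse. The change was smallest in replicate 3: of the genes that fell, 705 (76.3%) had their smallest change in that pair, with a median log2 change of -1.01 there against -1.63 and -1.88 in pairs 1 and 2. Of the genes that rose, 746 (50.75%) had their smallest change in pair 3. All day 10 libraries lay above all day 4 libraries in 2780 tested genes (17.7%) and below them in 3701 (23.6%), so the absence of overlap noted for single genes below is common. Leaving out all libraries of replicate 1 left 1509 called genes, leaving out replicate 2 left 938, and leaving out replicate 3 gave 3271.

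**Figure D1:**
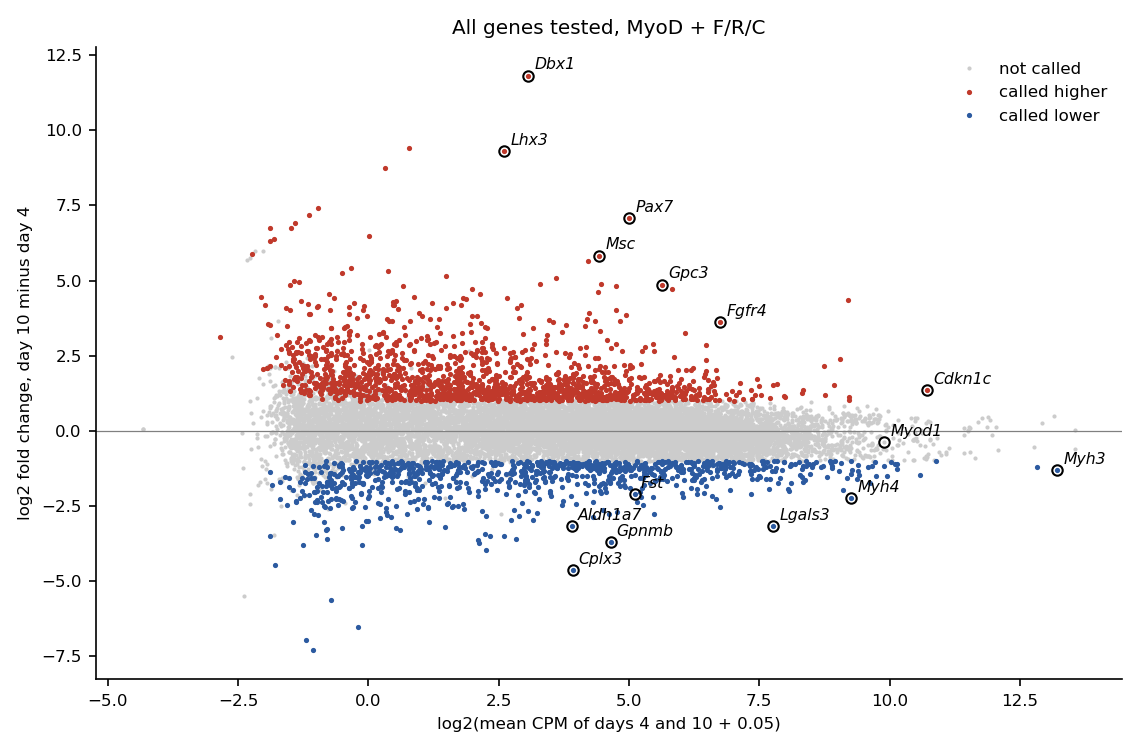
Change of each tested gene between day 4 and day 10 with MyoD and F/R/C. The x axis is the mean level in log2 CPM and the y axis the log2 fold change, with the 1470 genes called higher and the 924 called lower coloured and selected genes named; Pax7 stands at 7.08.

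Pax7 rose from near absence to a level close to that of established iMPCs. In replicates 1, 2 and 3 it was at 0.222, 0.211 and 1.19 CPM on day 4, at 2.66, 1.71 and 9.52 CPM on day 6, at 29.7, 31.3 and 29.9 CPM on day 8, and at 75.7, 67.9 and 47.1 CPM on day 10. Each replicate was higher on every later day than on the day before, and the ranges of the 4 days did not overlap. Replicate 3 held the highest level on days 4 and 6 and the lowest on day 10. The gene (chr4:139737062-139833528, minus strand, GRCm38) changed by 7.08 on the log2 scale from day 4 to day 10 (SE 0.69, adjusted p 0.000117), and the changes within pairs 1, 2 and 3 were 8.12, 8.03 and 5.25 on the log2 scale with 0.05 CPM added. The call was kept under every alternative listed in the closing section. The means of days 4, 6 and 8 were 0.851%, 7.28% and 47.6% of that of day 10.

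Of the single steps of the course, that from day 6 to day 8 was called for Pax7, with a log2 fold change of 2.91 (adjusted p 0.0365). That call was lost without replicate 1, without replicate 2 and without the block, where 0 genes were called in this step. The step from day 4 to day 6 had a log2 fold change of 3.03 at an adjusted p of 0.129, and that from day 8 to day 10 one of 1.15 at an adjusted p of 0.351. Pax7 reads summed over 3 libraries were 34 on day 4 and 4633 on day 10. The longer of its annotated transcripts took 81.8% of them on day 4, 92.5% on day 6, 92.7% on day 8 and 91.6% on day 10, so the same form prevailed throughout.

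Without F/R/C, Pax7 stayed at the floor: it had between 0 and 0.198 CPM in the 12 libraries of MyoD alone on days 4 to 10. It also had 0 reads in the 3 day 2 libraries with F/R/C. Day 10 with F/R/C averaged 63.6 ± 14.8 CPM (n = 3, SD), unsorted iMPCs 61.7 ± 21.1 CPM (n = 3, SD) and iMPCs sorted for the reporter 306 ± 43.7 CPM (n = 3, SD). The difference between courses in the change from day 4 to day 10 was estimated at 6.40 on the log2 scale and did not pass the threshold (SE 2.59, adjusted p 0.075), in a comparison where no library of MyoD alone exceeded 0.198 CPM.

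**Figure D2:**
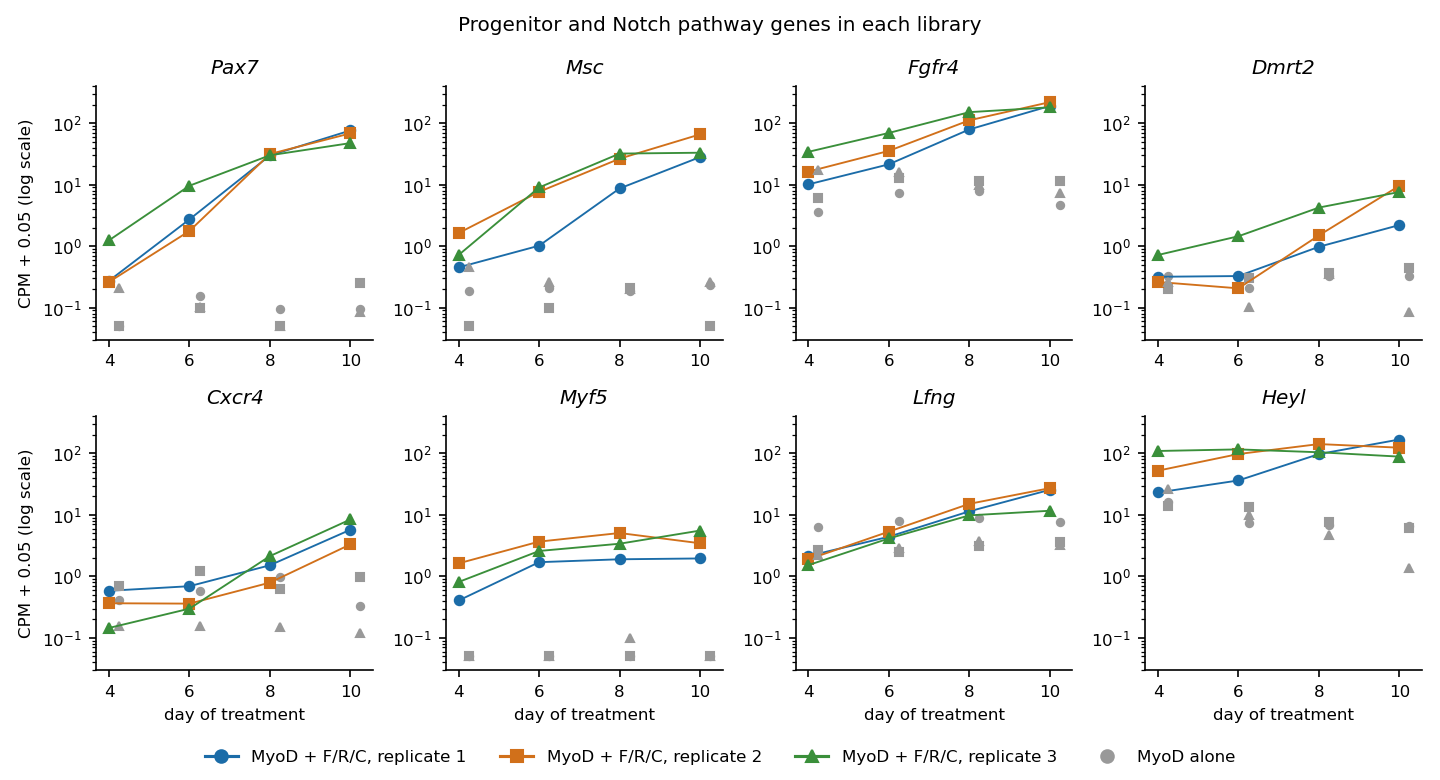
Levels of 8 progenitor and Notch pathway genes by day in CPM on a log scale, with a coloured line per replicate for MyoD with F/R/C and grey for MyoD alone. Pax7 climbed from at most 1.19 CPM on day 4 to at least 47.1 CPM on day 10 with F/R/C, and stayed at or under 0.198 CPM with MyoD alone.

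Of 22 genes listed as markers of muscle stem or progenitor cells, 20 had enough reads to be tested, 7 of them rose between day 4 and day 10 and 1 fell. The list's median log2 fold change was 0.39, against 0.03 for all tested genes. Besides Pax7, the genes that rose were Msc, Fgfr4, Dmrt2, Cxcr4, Myf5 and Chodl.

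Msc, a helix-loop-helix repressor of muscle precursors, was at 0.400, 1.58 and 0.666 CPM on day 4 and at 27.9, 65.4 and 32.9 CPM on day 10. All day 10 libraries were far above all day 4 libraries, with a change of 5.83 on the log2 scale (SE 0.52, adjusted p 9.4e-05). Fgfr4, a fibroblast growth factor receptor of muscle progenitors, was already present on day 4 at 10.01, 16.2 and 34.0 CPM and reached 189, 218 and 180.1 CPM. Its replicates were unequal on day 4 and alike on day 10, and the fitted change was 3.61 on the log2 scale (SE 0.34, adjusted p 0.000105). Both genes, like Pax7, were also called in the step from day 6 to day 8, and like Pax7 lost that call without replicate 1, without replicate 2 and without the block.

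Dmrt2, a transcription factor of the early somite, went from 0.267, 0.211 and 0.666 CPM to 2.15, 9.49 and 7.52 CPM (log2 change 4.18 with SE 0.57, adjusted p 0.000559). Cxcr4, the chemokine receptor that guides migrating progenitors, went from 0.534, 0.316 and 0.0952 CPM to 5.68, 3.26 and 8.37 CPM (log2 change 4.24 with SE 0.50, adjusted p 0.000267). Neither gene overlapped between the days, and replicate 2 was highest for Dmrt2 and replicate 3 for Cxcr4 on day 10. Myf5, the myogenic factor expressed in activated satellite cells, changed less, from 0.356, 1.58 and 0.761 CPM to 1.91, 3.41 and 5.51 CPM (log2 change 2.19 with SE 0.33, adjusted p 0.00084). It was at 0 in all libraries of MyoD alone on days 4 and 10, and unsorted iMPCs averaged 28.6 CPM.

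On the authors' TPM scale, which allows genes to be compared per length, Pax7 averaged 23.4 ± 7.0 TPM on day 10, Msc 51.8 ± 25.1 TPM and Myf5 2.91 ± 1.43 TPM (n = 3, SD). Myod1 at 812 ± 185 TPM and myogenin (Myog) at 1457 ± 345 TPM were far above these on the same day. In established unsorted iMPCs the order differed: Myf5 averaged 23.6 ± 19.02 TPM beside 17.9 ± 6.2 TPM for Pax7, and Myod1 108 ± 14.6 TPM. Pax7 was thus near its iMPC level on day 10 while Myf5 was below and Myod1 above theirs, by values only, since no test was made between these groups. Their Dox exposure also differed, at 10 days for the day 10 libraries and a recorded 13 days for the unsorted iMPCs. In the Myod1 values, reads of the induced transgene and of the cell's own gene were not separated, so they do not compare the latter between groups.

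Other markers of the list, several of them also made by muscle fibres, did not rise. Vcam1, an adhesion molecule used to sort satellite cells, fell from 106, 58.2 and 57.5 CPM to 63.2, 18.3 and 20.1 CPM (log2 fold change -1.20, adjusted p 0.00472). It was not called without replicate 2 (adjusted p 0.063), without replicate 3 (-0.998) or without the block (adjusted p 0.261), among other alternatives. Cdh15, the cadherin of myoblasts, averaged 1292 ± 119 CPM on day 4 and 811 ± 119 CPM on day 10, a log2 fold change of -0.56 that did not reach the fold threshold (adjusted p 0.00667). Desmin (Des), the muscle intermediate filament protein, stood at -0.58, and the integrin Itga7 at -0.81. Because these abundant genes outweigh Pax7 and its companions, the summed level of the list was lower on day 10 (3705 to 4624 CPM) than on day 4 (5105 to 6114 CPM), while its mean of log2(CPM + 1) was higher, at 4.70 to 4.83 against 3.90 to 4.07.

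Sdc4, Spry1, Met, Gas1 and Cd34 had log2 fold changes between -0.52 and 0.42 and were not called. Calcr was first read on day 10, with 7, 3 and 1 reads in replicates 1, 2 and 3, too few to be tested. Chodl, a lectin of satellite cells, rose from 0.143 ± 0.088 to 0.918 ± 0.506 CPM (n = 3, SD; log2 fold change 2.88, adjusted p 0.00695), but was not called without replicate 2 (adjusted p 0.132) or without the block (adjusted p 0.0673). Its level with MyoD alone was higher, at 8.83 CPM on day 10.

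Notch pathway genes changed in 1 direction among those called: 6 of 18 rose and 0 fell, against 9.36% and 5.88% of all tested genes. The list's median log2 fold change was 0.85. At an adjusted p under 0.05 whatever the fold, 10 were higher and 2 lower, the latter being Hes1 (-0.48) and the ligand Jag2 (-0.40, adjusted p 0.0362). The clearest rise was that of Lfng, a glycosyltransferase that modifies Notch receptors and shifts their response to ligands. It was at 2.09, 1.84 and 1.48 CPM on day 4, at 4.36, 5.29 and 4.09 CPM on day 6, at 11.4, 15.1 and 9.77 CPM on day 8, and at 25.5, 27.1 and 11.6 CPM on day 10. The day 4 and day 10 libraries were well apart and replicate 3 was the lowest on each day (log2 change 3.62 with SE 0.24, adjusted p 4.5e-05). The ligand Dll1, found on differentiating myogenic cells, rose from 22.9, 25.4 and 24.5 CPM to 50.0, 49.9 and 36.3 CPM. All day 10 libraries were above all day 4 libraries, but the change of 1.01 on the log2 scale (SE 0.21, adjusted p 0.00376) lay just over the threshold. It fell under it without replicate 1 (0.85) or replicate 2 (0.94). The same held, among other alternatives, with another normalisation (0.983), with DESeq2 (0.984) and with only the 6 libraries of days 4 and 10 (0.998).

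Because this sugar-transfer enzyme and this ligand rose together, their promoter windows are shown, from RefSeq on GRCm38.p6, clipped so that they hold no untranslated sequence. Capitals mark every match on either strand to CANNTG, the E-box core bound by MyoD and its relatives, and to TGGGAA, the core bound by the Notch effector RBPJ. The Lfng window is chr5:140607091-140607319 on the plus strand, and the Dll1 window is chr17:15376933-15377182 on the minus strand.
Lfng: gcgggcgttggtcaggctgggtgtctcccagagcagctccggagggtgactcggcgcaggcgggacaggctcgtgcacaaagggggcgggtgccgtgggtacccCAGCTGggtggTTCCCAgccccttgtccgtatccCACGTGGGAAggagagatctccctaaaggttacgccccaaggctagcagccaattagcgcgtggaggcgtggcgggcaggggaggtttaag
Dll1: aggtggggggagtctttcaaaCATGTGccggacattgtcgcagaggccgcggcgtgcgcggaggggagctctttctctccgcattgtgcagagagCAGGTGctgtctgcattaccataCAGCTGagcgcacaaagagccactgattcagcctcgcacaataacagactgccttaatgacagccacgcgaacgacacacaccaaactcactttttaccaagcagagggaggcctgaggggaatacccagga
The Lfng window held 2 matches to CANNTG and 2 to TGGGAA, one of which overlaps the second E-box core. The Dll1 window held 3 matches to CANNTG and 0 to TGGGAA. Among all 32851 windows, 66.2% held CANNTG and 21.6% held TGGGAA, and among the 1350 windows of genes called higher the shares were 62.1% and 22.2%. Among the windows of all tested genes they were 58.6% and 20.5%. A match is a description of letters and no measured binding site.

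The other Notch genes that rose were the receptor Notch3, the feedback inhibitor Nrarp, the target Hey2 and the receptor Notch4. Nrarp went from 1.78, 1.16 and 2.33 CPM to 5.49, 7.11 and 5.05 CPM (log2 fold change 1.90, adjusted p 0.00312), with no overlap, but was not called without replicate 2 (adjusted p 0.0885). Notch3 had a log2 fold change of 1.20 (adjusted p 0.00933) and was not called without replicate 1 (0.80, adjusted p 0.0933) or replicate 2 (1.09, adjusted p 0.111). Hey2 also needed replicate 2, without which its adjusted p was 0.0874. Notch4 was below 2 CPM in each of the 12 libraries and lost its call under 10 of 17 alternatives, among them without replicate 1 (adjusted p 0.2355) and without replicate 2 (adjusted p 0.198).

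The Notch targets of satellite cells behaved differently between replicates. Heyl was at 23.1, 52.3 and 109 CPM on day 4 and at 168, 124 and 88.5 CPM on day 10. It was higher on day 10 in replicates 1 and 2 and lower in replicate 3, and was not called (log2 fold change 1.40, adjusted p 0.0547). Without replicate 3 the log2 fold change of Heyl was 2.27 (adjusted p 0.000691) and that of Hey1, a related repressor, was 1.69 (adjusted p 0.00046), against 1.01 (adjusted p 0.0724) with all replicates. Hes1, a target in many tissues, averaged 29.96 ± 3.34 CPM on day 4 and 19.9 ± 2.1 CPM on day 10 (n = 3, SD). Its log2 fold change of -0.48 did not reach the fold threshold (adjusted p 0.0105). Rbpj itself was at 267 and 269 CPM on the 2 days.

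Among 20 regulators of myogenesis, 3 rose and 0 fell, against 9.36% and 5.88% of all tested genes, with a median log2 fold change of -0.09. At an adjusted p under 0.05 whatever the fold, 6 were higher and 6 lower. Myod1 was at 905, 1360 and 1054 CPM on day 4 and at 607, 992 and 778 CPM on day 10, lower in every pair and not called (log2 fold change -0.39, adjusted p 0.012). Reads of the induced transgene and of the cell's own Myod1 were not separated here. Myog, which drives terminal differentiation, was at 1031 ± 158 and 1112 ± 266 CPM (n = 3, SD), and its log2 fold change of 0.21 was within the spread (adjusted p 0.305).

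Eya2, a transcriptional coactivator of muscle precursors, rose from 2.18, 1.74 and 3.24 CPM to 13.3, 11.1 and 7.49 CPM (log2 fold change 2.28, adjusted p 0.00127). The homeobox factor Prox1 rose from 5.11, 5.37 and 4.85 CPM to 9.54, 13.2 and 17.0 CPM (log2 fold change 1.44, adjusted p 0.000523). Both were without overlap. On day 10 replicate 3 was lowest for Eya2 and highest for Prox1, and on day 4 the reverse. The third was Tcf3, an E protein that pairs with MyoD, whose log2 fold change of 1.02 was near the threshold and depended on the alternative. Mef2a, a muscle transcription factor, averaged 650.5 ± 57.2 CPM on day 4 and 313 ± 31.7 CPM on day 10 (n = 3, SD), a log2 fold change of -0.95 (adjusted p 7.6e-05) that did not reach the fold threshold.

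Genes of fast and mature muscle were lower on day 10 as a group: 8 of 22 fell and 0 rose, with a median log2 fold change of -0.86, and 20 of the 22 were lower at an adjusted p under 0.05 whatever their fold, against 3324 of all tested genes (21.2%), where 3557 (22.6%) were higher by the same measure. The fast myosin heavy chain Myh4 was at 626, 832 and 1562 CPM on day 4 and at 138, 105 and 423 CPM on day 10, with no overlap and replicate 3 highest on both days (log2 change -2.25 with SE 0.27, adjusted p 0.000283). Myh1, another fast myosin heavy chain, went from 2292, 3072 and 1584 CPM to 875, 816 and 606 CPM (log2 change -1.47 with SE 0.13, adjusted p 8.9e-05). Myoglobin (Mb), the oxygen store of muscle, went from 50.5, 63.6 and 31.1 CPM to 10.02, 13.1 and 12.7 CPM (log2 change -1.86 with SE 0.18, adjusted p 0.000117). Reads of the similar myosin genes can be divided between them by the authors' counting, so each single myosin is uncertain while all of those named moved the same way.

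Skeletal actin (Acta1), the calcium buffer Casq1, the enolase Eno3, the creatine kinase Ckm and the light chain Mylpf were the other genes of this list that fell, with log2 fold changes from -1.53 to -1.02. Without replicate 2, Casq1 (adjusted p 0.087), Ckm (adjusted p 0.0535), Eno3 (log2 fold change -0.98) and Mylpf (-0.94) were not called, and Mylpf was not called without replicate 1 either (-0.99). In the list of embryonic and slow or cardiac sarcomere genes 1 of 12 fell and 2 rose, with a median of -0.51. The gene that fell was Myh3, which reached 4116, 5271 and 6263 CPM on day 10 (log2 fold change -1.30, adjusted p 7.2e-05). In a fit of 33 libraries, the whole time course with untreated fibroblasts, Myh3 was not called (-1.31, adjusted p 0.265), nor was Mylpf (adjusted p 0.125). The genes that rose were the cardiac and slow light chains Myl2, from 0.320 to 1.05 CPM on average, and Myl3, from 4.72 to 11.6 CPM, both small beside the myosins.

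Of 11 tested genes of fusion and the neuromuscular synapse, 3 fell and 0 rose, with a median of -0.78. The acetylcholine receptor subunit Chrna1 fell from 1177, 1642 and 1050 CPM to 368, 509 and 389 CPM (log2 change -1.50 with SE 0.09, adjusted p 4.2e-05), with all day 10 libraries well below those of day 4. The embryonic subunit Chrng (-1.01) and the fusogen Mymk (-1.05) lay at the threshold and lost their calls without replicate 3 (-0.99) and replicate 1 (-0.94), and in the fit of 33 libraries (adjusted p 0.1405 and 0.129). Mymx, the second fusogen, was at 64.4 ± 6.8 CPM on day 4 and 75.2 ± 17.6 CPM on day 10 (n = 3, SD) and was not called.

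**Figure D3:**
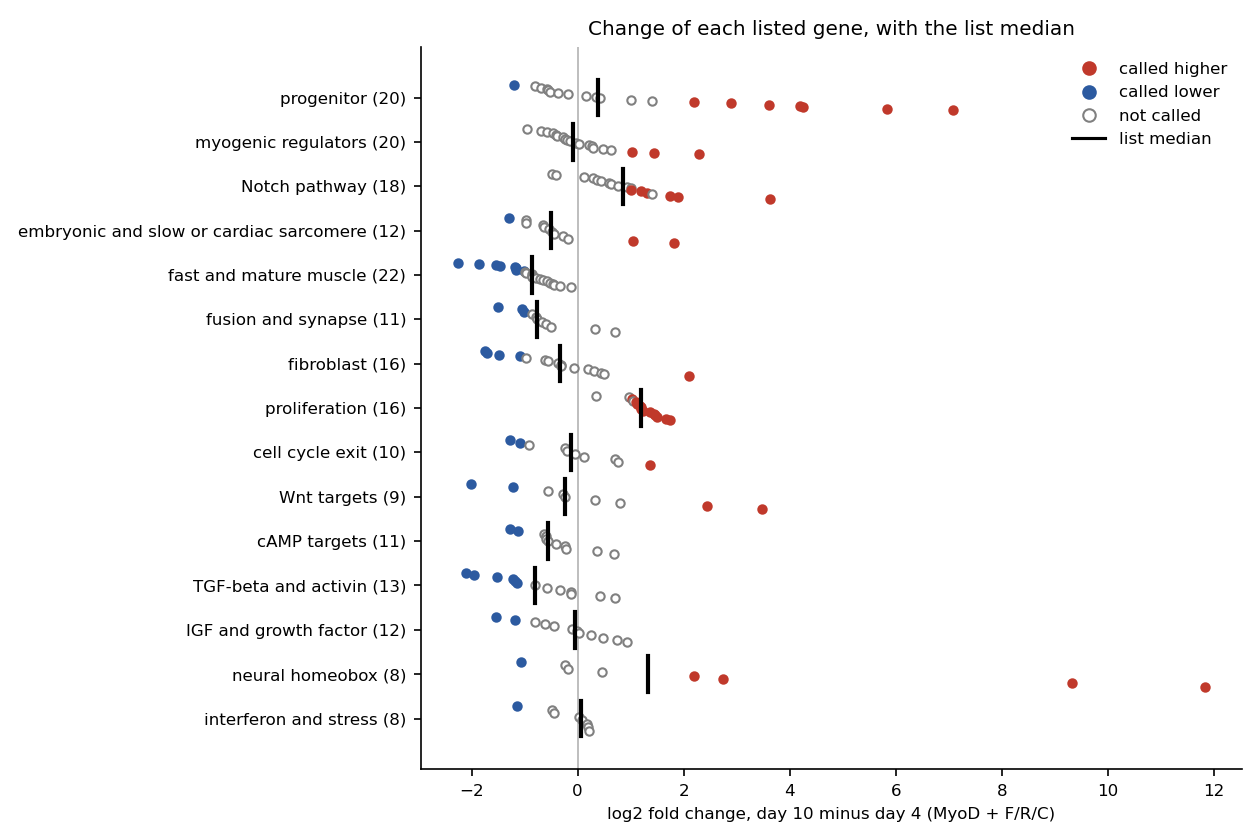
Log2 fold change from day 4 to day 10 for each tested gene of the lists, with a bar at each list's median. The medians of proliferation (1.19) and the Notch pathway (0.85) lie above that of all genes (0.03), and those of fast and mature muscle (-0.86) and TGF-beta and activin (-0.80) lie below.

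Most genes of dividing cells rose, in replicates 1 and 2 more than in replicate 3. Of 16 genes, 13 rose and 0 fell, with a median log2 fold change of 1.19. Mki67, which marks cycling cells, was at 40.6, 39.2 and 66.5 CPM on day 4, at 61.5, 70.2 and 75.8 CPM on day 6, at 138, 142 and 69.7 CPM on day 8, and at 203, 178 and 92.9 CPM on day 10. Replicates 1 and 2 climbed throughout, whereas replicate 3 started higher and stayed nearly level (log2 change 1.74 with SE 0.37, adjusted p 0.00473). The call was lost without replicate 1 (1.36, adjusted p 0.0727) or replicate 2 (1.44, adjusted p 0.0964). The mean of log2(CPM + 1) over the list went from 4.92 to 6.67 in replicate 1, from 4.96 to 6.38 in replicate 2 and from 5.45 to 5.54 in replicate 3. Within pairs 1, 2 and 3 the log2 changes of Mki67 were 2.32, 2.19 and 0.48. Ccnb1 (-0.26), Cdc20 (-0.16) and Birc5 (-0.07) were called although they were lower on day 10 in pair 3. Of the called genes of this list that were followed, Top2a, Ccna2, Kif11, Mcm2, Mcm5 and Pcna, like Mki67, were called neither without replicate 1 nor without replicate 2. Plk1 (1.04, adjusted p 0.0599), Tpx2 and Rrm2 were the genes of the list that were not called.

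Among 10 regulators of the cell cycle, a list of inhibitors of division together with D cyclins that promote it, 1 rose and 2 fell. The count thus mixes genes of opposite action. Cdkn1a (p21), the inhibitor that MyoD induces as myoblasts stop dividing, fell from 1493, 1769 and 1354 CPM to 598, 741 and 669 CPM (log2 change -1.09 with SE 0.08, adjusted p 6.2e-05). Cdkn1c (p57), an imprinted inhibitor of the same family, rose from 748, 975 and 1396 CPM to 2025, 2946 and 2057 CPM (log2 change 1.35 with SE 0.24, adjusted p 0.00177). Both were without overlap, and the p57 call was lost without replicate 2 (1.12, adjusted p 0.0638). Cyclin D2 (Ccnd2) fell from 459 ± 136 to 178 ± 63.5 CPM (n = 3, SD; log2 fold change -1.28, adjusted p 0.000441).

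**Figure D4:**
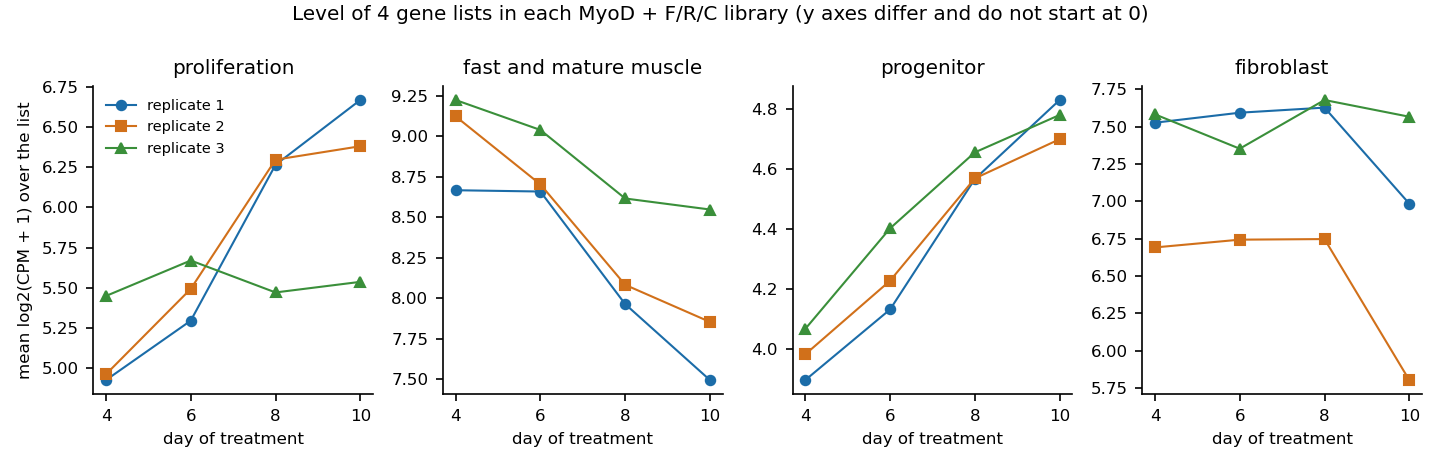
Mean of log2(CPM + 1) over 4 gene lists by day, with a line per replicate. The proliferation level of replicate 3 moves from 5.45 to 5.54 while replicates 1 and 2 reach 6.67 and 6.38, and the progenitor level rises in each replicate to between 4.70 and 4.83.

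Fibroblast genes split. Of 16, 4 fell and 1 rose, with a median of -0.34. Twist2, a mesenchymal transcription factor, fell from 43.5, 20.3 and 29.4 CPM to 13.99, 3.65 and 9.68 CPM (log2 change -1.75 with SE 0.19, adjusted p 0.000187). The surface marker Thy1 (-1.71), the transcription factor Prrx1 (-1.09) and the matrix protein tenascin (Tnc, -1.48) also fell. Thy1 was not called without replicate 2 (adjusted p 0.0578) or without the block (adjusted p 0.0912), Prrx1 was not called without replicate 2 (-0.89), and Tnc was not called without the block (adjusted p 0.0642). Periostin (Postn), a matrix protein, rose from 23.2, 18.9 and 52.1 CPM to 98.5, 83.5 and 176 CPM (log2 change 2.10 with SE 0.14, adjusted p 4.9e-05), with no overlap and replicate 3 highest on both days.

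The main fibrillar collagen gene Col1a1 was at 753, 340 and 1033 CPM on day 4 and at 690, 307 and 1792 CPM on day 10, lower in replicates 1 and 2 and higher in replicate 3 (log2 fold change 0.31, adjusted p 0.245). The list's mean of log2(CPM + 1) went from 7.53 to 6.98 in replicate 1, from 6.69 to 5.80 in replicate 2 and from 7.58 to 7.57 in replicate 3. Replicate 3, in which the proliferation list was nearly level, was thus also the one in which the fibroblast list was level, and the part of fibroblasts in that difference was not tested.

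Markers of cell types other than muscle and fibroblasts were mostly low. Of 34, 24 were tested, 2 rose and 5 fell. Summed levels on day 4 and day 10 were 1.48 to 2.09 and 1.67 to 2.05 CPM for 5 endothelial markers, and 2.84 to 4.47 and 4.20 to 4.87 CPM for 5 immune markers. The 5 adipocyte markers summed to 2.81 to 13.0 and 1.70 to 3.64 CPM, the 5 epithelial ones to 9.56 to 23.8 and 4.92 to 9.82 CPM, and the 4 cartilage ones to 11.8 to 14.5 and 17.3 to 21.5 CPM. Schwann and neuron markers summed to between 74.1 and 170 CPM on day 4 and between 24.6 and 43.7 CPM on day 10, nearly all of it Tubb3, a tubulin (log2 fold change -1.92), while Sox10, the defining factor of Schwann cells, had 0 reads on day 4 and 6 on day 10. The 4 smooth muscle markers, which fibroblasts and young muscle also express, were at 1867 to 4275 CPM on day 4 and 1003 to 1781 CPM on day 10. Their part in the results was not tested.

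Targets of the pathways that F/R/C acts on moved in both directions. Of 9 tested Wnt targets and antagonists, 2 rose and 2 fell. Lgr5, a receptor for R-spondins and a Wnt target, was at 1.96, 1.69 and 6.52 CPM on day 4, at 8.70, 15.02 and 10.8 CPM on day 8 and at 31.2, 44.6 and 20.4 CPM on day 10, without overlap between day 4 and day 10 (log2 change 3.47 with SE 0.53, adjusted p 0.000979). Lef1, a transcription factor of the same pathway, rose from 1.60, 1.11 and 1.81 CPM to 8.82, 7.01 and 6.32 CPM (log2 fold change 2.43, adjusted p 0.000323). The antagonists Dkk2 (-2.01) and Nkd2 (-1.22) fell, Dkk2 not without replicate 2 (adjusted p 0.101) and Nkd2 not under several alternatives. Axin2, the most used readout of Wnt signalling, had a log2 fold change of -0.28 and was not called (adjusted p 0.0938).

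In the TGF-beta and activin list 6 of 13 fell and 0 rose, with a median of -0.80. Follistatin (Fst), which binds activin and myostatin, fell from 90.9, 28.4 and 48.9 CPM to 13.1, 3.21 and 22.4 CPM (log2 fold change -2.10, adjusted p 0.00108, without the block adjusted p 0.0563). The activin subunit Inhba (-1.53), Tgfb3 (-1.22) and Ccn2 (-1.18) were others that fell. Without replicate 2, Inhba (adjusted p 0.057) and Tgfb3 (adjusted p 0.0583) were not called, and Ccn2 was not called under several alternatives. Myostatin (Mstn), the muscle growth inhibitor, stood at -0.80 and did not reach the fold threshold.

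Of 11 cAMP targets, 2 fell and 0 rose, with a median of -0.56: the nuclear receptor Nr4a1 (-1.27) and the phosphatase Dusp1 (-1.12), neither of which was called without replicate 2. Among 12 IGF and growth factor genes 2 fell and 0 rose, with a median of -0.05. Hgf, the ligand of the receptor Met, fell from 27.4, 11.9 and 23.4 CPM to 10.3, 2.87 and 7.77 CPM (log2 fold change -1.53, adjusted p 0.000388). Igf1 had a log2 fold change of -1.18 (adjusted p 0.0112), which was -0.74 and not called without replicate 2, and was not called without replicate 1 either (adjusted p 0.0955). Igf2, the fetal growth factor, at 15090 ± 1200 CPM on day 4, was at 9123 ± 720 CPM on day 10 (n = 3, SD; log2 fold change -0.62, below the fold threshold).

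The largest increases were in homeobox genes best known from the spinal cord. Of 8 tested genes of that list, 4 rose and 1 fell, with a median of 1.33. The list was chosen with earlier results of these data known, so its count and median only describe it. In the comparison with MyoD alone, 0 of the 8 were called in either direction (median difference 0.16), which does not show equal changes. The summed level of the 10 listed genes with MyoD alone was 16.2 to 25.2 CPM on day 4 and 15.5 to 18.8 CPM on day 10. With F/R/C it was 20.3 to 23.5 CPM on day 4 and 39.2 to 48.6 CPM on day 10. Dbx1 had 0 reads on day 4, 1 read on day 6 in replicate 3, and levels of 0.380, 0.524 and 3.94 CPM on day 8 and 13.3, 18.9 and 17.8 CPM on day 10. The day 10 mean was at least 115-fold higher than a floor of 3 reads per library on day 4 (adjusted p 0.000275). Lhx3 had 1 read on day 4 and 598, 234 and 33 reads on day 10, a ratio of 730.3 with a 95% interval of 131 to 28880 that covers counting error only. Replicate 1 was by far the highest in Lhx3 and replicate 3 by far the lowest, at 23.8 and 1.17 CPM. Unsorted iMPCs averaged 23.1 CPM for Dbx1 and 0.0365 CPM for Lhx3. En2 and Isl1 rose at levels under 3 CPM, and En1 was lower at -1.08, a call that was lost without replicate 1 (-0.97) or replicate 2 (-0.91).

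Besides these, the genes named by rank of fold change, at 5 CPM or more on either day and with 3 concordant pairs, gave the following picture. Gpc3, a cell surface glypican, rose from 5.51, 1.90 and 3.57 CPM to 103, 79.99 and 102 CPM (log2 change 4.87 with SE 0.31, adjusted p 4.2e-05), with no overlap. Col6a6, a collagen VI chain, rose from 0.534, 0.211 and 1.76 CPM to 60.5, 16.8 and 31.6 CPM (log2 fold change 5.66), and the carboxypeptidase Cpm from 1.65, 1.11 and 1.76 CPM to 38.7, 57.9 and 30.8 CPM (log2 fold change 4.88). Chrnb4 (5.14), a nicotinic receptor subunit, Ky (5.08), a protease of muscle, the phosphodiesterase Pde2a (4.90), Tmc3 (4.84) and Moxd1 (4.73) completed the set that rose, and each of these genes was called under every alternative.

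The decreases of largest fold were of a different kind. Lgals3, the secreted lectin galectin-3, fell from 384, 492 and 304 CPM to 42.3, 22.8 and 56.2 CPM (log2 change -3.18 with SE 0.34, adjusted p 0.00018). Gpnmb, a lysosomal glycoprotein, fell from 81.4, 37.6 and 22.0 CPM to 4.37, 1.66 and 2.97 CPM (log2 fold change -3.71). Cplx3, a complexin that regulates vesicle release, fell from 41.5, 32.3 and 13.4 CPM to 1.43, 0.341 and 1.31 CPM (log2 fold change -4.64, adjusted p 0.00014). The other genes chosen by the same rule were Muc15 (-3.96), Sprr2k (-3.73), Fgfbp1 (-3.64), Rab3c (-3.61), Lingo2 (-3.50), Synpr (-3.49), Lman1l (-3.42), Aldh1a7 (-3.17) and Erc2 (-2.98). Muc15 was not called without replicate 2 (adjusted p 0.0592), and Aldh1a7 may share reads with a close copy.

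The course was gradual, with few calls in any single step. From day 4 to day 6, 38 genes (0.242%) were called, 37 of them higher (0.235%) and 1 lower (0.00636%), and none belonged to the lists. The gene of largest fold among those named was Cd3g, a chain of the T cell receptor complex, which went from 1.25, 1.58 and 3.62 CPM to 5.01, 10.7 and 37.1 CPM (log2 fold change 2.82). It was followed by the potassium channel partner Kcnip2 (2.55), the steroid enzyme Cyp11a1 (2.44) and desmoplakin (Dsp, 2.31), and the gene called lower was Aldh1a7 (-1.31). Without replicate 1 only 1 gene was called in this step, without replicate 2 or without the block 0 (1967 genes at an unadjusted p under 0.05 in edgeR with all replicates), and without replicate 3 85. DESeq2 called 175.

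From day 6 to day 8, 93 genes (0.592%) were called, 75 higher (0.477%) and 18 lower (0.115%). List members that rose in this step were Pax7, Msc, Fgfr4, Lfng, Hey2, Postn and Lhx3, and Mb fell. The named genes with the largest increase were Lhx3 (4.73), Pax7 (2.91), Cpm (2.89) and Sparcl1 (2.76), and those with the largest decrease were Cplx3 (-2.07), the linker histone Hist1h1e (-1.43), Erc2 (-1.39) and the taste receptor Tas1r1 (-1.30). Without replicate 1, without replicate 2 or without the block 0 genes were called in edgeR, against 3340 at an unadjusted p under 0.05 with all replicates, and 478 were called without replicate 3. DESeq2 called 209.

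From day 8 to day 10, 0 genes (0%) were called by edgeR, while 2017 had an unadjusted p under 0.05. DESeq2 called 81, edgeR without a filter on low counts called 24, and edgeR without replicate 3 called 528. Levels nevertheless continued in the same direction for the genes described above: Pax7, Msc, Fgfr4, Lfng, Lgr5 and Dbx1 had a higher mean on day 10 than on day 8, and Myh4, Myh1 and Chrna1 a lower one.

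The change from day 4 to day 10 was then set against the change in the course with MyoD alone, as a difference of changes in 1 model of 24 libraries. Of 16440 tested genes, 2239 (13.6%) differed, 918 with a larger increase or smaller decrease with F/R/C (5.58%) and 1321 the reverse (8.04%). Without replicate 1 the number was 727, without replicate 2 it was 626 and without the block 1124. In the progenitor list 8 of 20 tested genes had the more positive change with F/R/C and 3 the more negative one, and the list's median was 1.58. Fgfr4, at 8.98 and 7.68 CPM on average on days 4 and 10 of MyoD alone, differed by 3.65 (adjusted p 0.000181), Msc by 6.15, Cxcr4 by 4.34 and Dmrt2 by 3.98. Heyl, whose change with F/R/C alone was not called, differed by 3.25 (adjusted p 0.00621). Its mean with MyoD alone was 18.9 CPM on day 4 and 4.58 CPM on day 10.

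In the Notch list 6 of 18 had the more positive change with F/R/C and 0 the more negative one. Dll1 differed by 3.12, going from 19.95 to 4.89 CPM with MyoD alone, and Lfng differed by 3.21. Cdkn1c differed by 3.59 and Lgr5 by 3.94. In the Wnt list as a whole, 2 of 9 tested genes had the more positive change and 4 the more negative one (median 0.05). Among the 10 cell cycle regulators these counts were 1 and 2. No gene of the proliferation list was called in this comparison in either direction, and its median difference was 0.56. With MyoD alone the list's mean of log2(CPM + 1) rose in replicates 1 (from 4.28 to 5.36) and 3 (from 4.53 to 5.30) and fell in replicate 2 (from 3.38 to 2.88). The rise of this list was thus not confined to the course with F/R/C. In the fast and mature muscle list 1 gene differed upward and 3 downward, with a median of -0.25: Myh4 was not called (-0.98), and Acta1 and Mb were not called either, whereas Myh1 differed by -1.89 and Casq1 by -2.87. The decrease of most fibre genes between these days was thus not called different from that with MyoD alone, which does not show that the decreases were equal.

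The fibroblast list had 0 genes with a more positive change and 5 with a more negative one, with a median of -0.78. Thy1 differed by -2.68 and Twist2 by -2.62. Both fell with F/R/C, and their levels with MyoD alone averaged 328 and 16.5 CPM on day 4 and 656 and 30.3 CPM on day 10. Fst and Hgf both differed by -3.90. Myf6, the late myogenic factor of mature fibres, differed by -6.40 (adjusted p 6.7e-05): it averaged 39.7 and 33.7 CPM on days 4 and 10 with F/R/C, and 0.0150 and 1.64 CPM with MyoD alone. Spon1, a secreted matrix protein, had the largest more positive change among the genes named by rule, at 7.68, with levels of 2.18, 2.58 and 6.57 CPM on day 4 and 32.7, 71.6 and 45.4 CPM on day 10 of the F/R/C course.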

How the data were processed

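Bulk poly-A RNA-seq from stranded single-end libraries was described at the gene level. Per the submitters' processing notes, reads were demultiplexed with bcl2fastq 2.19, trimmed with Trimmomatic 0.36 and quantified with kallisto 0.44, with GRCm38.p6 as the genome build; settings and transcript release are not given in the sources used here. The deposited files hold estimated counts per transcript, which the authors did not normalise, and TPM, which the authors' program scaled to transcript length and a fixed sum. The TPM values were only averaged per group.

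Of 121843 transcripts, 121104 matched GENCODE M21; their estimated counts were summed over 35675 genes and rounded. In 22189 genes every library held a whole number within 0.01 reads; elsewhere reads were divided between genes. Matched transcripts held 99.5% to 99.6% of the reads of the 12 libraries. Steps along the course were fitted to 12 libraries and the comparison with MyoD alone to 24, with edgeR 4.0.16 in R 4.3.3 (TMM, filterByExpr by group, quasi-likelihood test, replicate number as a block). Adjusted p-values cover all genes tested. Each SE printed with a log2 fold change is its size divided by the square root of the test's F statistic. It was not estimated separately and is unreliable for genes near 0 reads. Levels in CPM use TMM over all 45 libraries. Lists are described by counts and medians.

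The block rests on the replicate numbers of the titles: deviations of same-numbered libraries from their day's mean correlated in all 18 comparisons of days (r from 0.206 to 0.687), and the sex-linked genes followed the numbers. On simulated counts with 200 of 15713 genes changed 4-fold, the day 4 to day 10 fit called 181, of which 172 were changed ones. For the comparison with MyoD alone, 137 of 148 called genes among 16440 were changed ones. The simulated means had no differences between replicates or other groups, and only the day 10 libraries with F/R/C were changed. The simulation therefore does not give the error rate in the real data, least of all near the fold threshold. Alternatives were another normalisation, no low-count filter, an effective-length offset, DESeq2 1.42.0, no block, other sets of libraries and leaving out replicates; leaving out single libraries was chosen after seeing the data. The members and gene lists were chosen with earlier results of these data known. Besides list members, genes were named by rank: the 12 called genes of largest fold in each direction between day 4 and day 10, 4 per step and 6 for the comparison with MyoD alone, at a mean of at least 5 CPM in 1 group and with 3 concordant pairs. Gene models known only by a number and Y-linked genes were left out. A member of the TGF-beta and activin list is not reported here.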

Additional observations from a re-analysis of the deposited data

Results flagged for a closer look

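The change between day 4 and day 10 differed between MyoD with F/R/C and MyoD alone, by the test of the difference itself in edgeR, for 2239 genes. All values below are that difference on the log2 scale, positive where the change with F/R/C was the more positive one.

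Progenitor and Notch genes with a more positive change were Msc (6.15), Cxcr4 (4.34), Fgfr4 (3.65), Heyl (3.25), Lfng (3.21) and Dll1 (3.12). The Wnt target Lgr5 (3.94) and the cell cycle inhibitor Cdkn1c (3.59) were of the same sign, but their lists were not. Of 9 tested Wnt targets and antagonists, 2 had the more positive change and 4 the more negative one. Of 10 cell cycle regulators, 1 had the more positive change and 2 the more negative one. Spon1 (7.68), Pde2a (7.13), Chrnb4 (6.22), Cilp (5.97) and Hif3a (5.91) had the more positive changes of largest size among the genes named by rank. Cilp, a cartilage matrix protein, averaged 149 CPM on day 4 and 30.5 CPM on day 10 with MyoD alone and went from 0.223 to 3.75 CPM with F/R/C.

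The more negative changes included the fibroblast genes Thy1 (-2.68) and Twist2 (-2.62), the secreted factors Fst (-3.90) and Hgf (-3.90), the myogenic factor Myf6 (-6.40), the calcium buffer Casq1 (-2.87) and the cyclin Ccnd2 (-1.63). Among the genes named by rank they were Angptl7 (-7.59), Xirp2 (-6.15), Rspo2 (-5.67), Vat1l (-5.44) and Csprs (-5.25). Angptl7, an angiopoietin-like protein, was at 0, 0.0991 and 100.4 CPM in replicates 1, 2 and 3 of MyoD alone on day 10, so its value rests on replicate 3. Xirp2, a muscle actin-binding protein, averaged 10.5 CPM on day 4 and 347 CPM on day 10 with MyoD alone, against 119 and 31.0 CPM with F/R/C. Csprs belongs to a family of near-identical copies and is uncertain.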

How the results depend on the processing

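Of 118 genes followed through the alternatives for day 10 against day 4, 85 were called, and 44 of these were called under every alternative; 16 lost the call without the replicate block, 19 without replicate 1, 32 without replicate 2, 3 without replicate 3 and 9 in the fit of 33 libraries. The direction turned in 4 values, none of them of a called gene: Myf6 without replicate 1 (0.033) and without its day 10 library (0.0096), Col1a1 without the day 10 library of replicate 3 (-0.0103) and Rrm2 without replicate 1 (-0.0614). With a replicate or library left out, these log2 fold changes ranged from -0.54 to 0.033 for Myf6, from -0.0103 to 0.48 for Col1a1 and from -0.0614 to 0.83 for Rrm2. Counts of called genes from day 4 to day 10 were 6881 with no minimum fold change, 1417 with only the 6 libraries of these days and 938 to 3271 with a replicate left out; without the replicate block they were 1693. For day 6 against day 4 they were 0 without the replicate block, 103 without the filter, 23 with the length offset, 175 with DESeq2 and 0 to 85 with a replicate left out. For day 8 against day 6 they were 335 with no minimum fold change, 0 without the replicate block, 159 without the filter, 209 with DESeq2 and 0 to 478 with a replicate left out. For day 10 against day 8 they were 24 without the filter, 81 with DESeq2 and 0 to 528 with a replicate left out. For the comparison with MyoD alone they were 4425 with no minimum fold change, 1124 without the replicate block and 626 to 2916 with a replicate left out. With fewer libraries, fewer residual degrees of freedom remain; other causes were not tested. With 3 replicates and 17.07 to 26.7 M reads, genes of a few reads such as Calcr could not be tested.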

Other observations

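Genes of interferon response and cellular stress gave little: of 8 tested, 0 rose and 1 fell between day 4 and day 10, with a median log2 fold change of 0.06 in edgeR. H19, the imprinted non-coding RNA next to Igf2, averaged 12430 ± 1512 CPM and later 11680 ± 1648 CPM (n = 3, SD), a log2 fold change of 0.02, while Igf2 had one of -0.62. Cd3g, which rose with F/R/C to 6.64, 12.3 and 52.8 CPM on day 10, averaged 90 CPM on day 4 and 86 CPM on day 10 with MyoD alone and 0.228 CPM in unsorted iMPCs. Ptprc, the pan-leukocyte gene, was at or under 0.177 CPM in the 12 libraries with F/R/C.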
